A study of Simmondsia chinensis with 44 samples.

Results

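Seed coat and embryonic axis of mid-stage jojoba (Simmondsia chinensis) seeds were compared by RNA sequencing, with 5 seed coat libraries set against 5 embryonic axis libraries out of 44 libraries in the series. The libraries were assigned to the 2 tissues by their labels, and every gene of the count table entered the comparison. All 44 libraries came from 1 germplasm line, PARL# 940. The other libraries were 5 of cotyledon and 5 of whole seed from the same mid-stage dissection series, and a separate time course with 6 libraries of each stage (early, mid and late developing seed, and dry seed). Whether the libraries within a group were made from separate plants or seeds, how much tissue was pooled and whether time-course seeds kept their coat is not given in the labels. The p-values therefore rest on a spread between libraries that may be only technical.

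The seed coat develops from the maternal integuments of the ovule, encloses the embryo and passes sugars and amino acids to it. The embryonic axis is part of the embryo itself and holds the root and shoot meristems from which the seedling grows. Cotyledons are the storage organs of the embryo, and in jojoba they are known for liquid wax esters instead of the triacylglycerol oil of most seeds. The comparison therefore sets a maternal tissue that surrounds the embryo against an embryonic tissue.

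The files do not pair gene identifiers with names or functions. The tissue labels could not be checked against defining markers, gene groups cannot be given by pathway, and no sequence is printed. Genes are given by identifier, 2 that were higher and 2 that were lower in seed coat, and the rest are described as counts. Total counts ranged from 11771219 to 27511168 per seed coat library and from 16334199 to 32758764 per embryonic axis library, over 23491 genes. Levels are TMM CPM, in which each count is scaled to a common library total adjusted for composition, and are not corrected for transcript length, so they compare 1 gene between samples and not genes with each other.

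Tissue was the main source of variation among the 10 libraries, and 1 seed coat library stood apart. On log2(CPM + 0.5), the first principal component, with 84.6% of the variance, put all 5 seed coat libraries on one side and all 5 axis libraries on the other. The second component, with 5.90%, set seed coat library 3, at 77.1, apart from the other seed coat libraries, at -23.0 to -18.7. In that library 2139 of 18499 genes were at least 2-fold below the mean of the other seed coat libraries and 750 were at least 2-fold above it. The other 4 seed coat libraries had 80 to 138 genes below and 132 to 354 above by the same measure. Among axis libraries, library 1 had the most genes below the others, 725, and library 3 the most above, 572. The median over genes of the SD between libraries was 0.27 in seed coat and 0.20 in embryonic axis on the log2 scale, and 0.20 in seed coat without library 3.

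Most genes tested differed between the tissues. With the quasi-likelihood test of edgeR and an adjusted p below 0.05 as the threshold, 11927 of 18499 genes differed, or 64.5%. Of these, 5824 (31.5%) were higher in seed coat and 6103 (33.0%) were lower. Higher calls made up 48.8% of all calls, against 47.3% with DESeq2's size factors and 45.5% with upper-quartile scaling. The median log2 difference over all genes was -0.05, -0.08 and -0.11 under these scalings. Each of them scales libraries on the bulk of genes, so they cannot decide how even the split between the tissues is. In 9932 genes, or 53.7%, the 5 libraries of one tissue did not overlap with the 5 of the other, 4778 (25.8%) with seed coat above and 5154 (27.9%) with seed coat below.

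The difference was of moderate size for most genes and very large for a minority, and most of the very large ones had the lower level in seed coat. The median size of the log2 difference was 0.72, and 7917 genes, or 42.8%, were within 1.5-fold. At a fold of 2 or more, 3122 genes called were higher in seed coat (16.9% of genes tested) and 3628 lower (19.6%). At 4 or more there were 1381 higher (7.47%) and 1961 lower (10.6%), 3342 or 18.1% of all genes tested, and these are called coat-high and axis-high genes from here on. At 16 or more there were 271 higher (1.46%) and 861 lower (4.65%). Fitted folds of that size rest partly on genes with almost no counts: in 37 of the 271 genes the axis had at most 3 counts in every library, and in 312 of the 861 the seed coat did. Without axis library 3 the 16-fold counts were 365 higher and 884 lower. Over all alternative settings and libraries left out they ranged from 232 to 365 higher and from 803 to 1268 lower. The 1268 came from the fit with no filter on low counts.

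**Figure D1:**
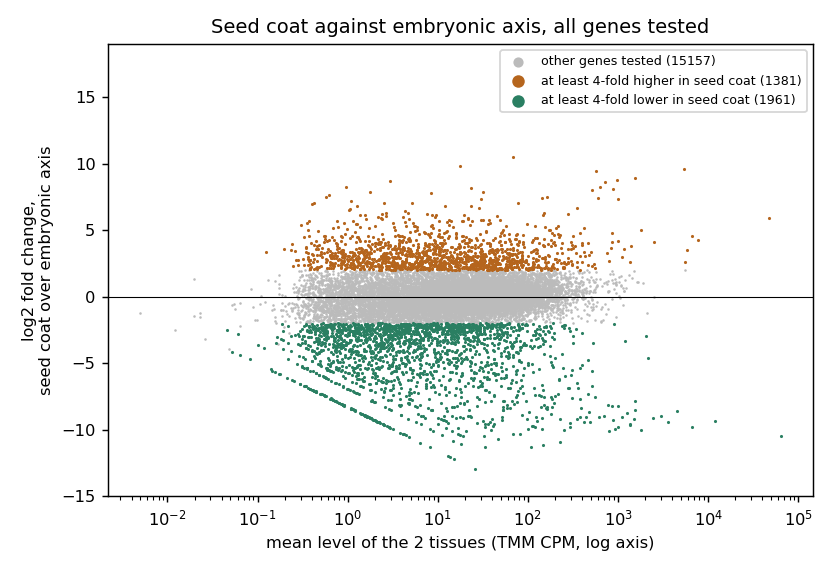
Log2 fold change of seed coat over embryonic axis (vertical axis) against the mean level of both tissues in TMM CPM (horizontal log axis), 1 point per gene tested, with coloured points for genes at least 4-fold higher (1381) or lower (1961) in seed coat at an adjusted p under 0.05. The lower cloud reaches further from 0 than the upper one, and the straight lower edge is made of genes with 0 counts in seed coat.

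Large differences were most frequent at both ends of the expression range. Of 55 genes with a mean of at least 1000 CPM over both tissues, 15 were coat-high and 18 axis-high, 27.3% and 32.7%. Of 10093 genes between 10 and 100 CPM, 529 (5.24%) were coat-high and 590 (5.85%) axis-high. Of 1457 genes under 1 CPM, 151 (10.4%) were coat-high and 363 (24.9%) axis-high. Low genes reach the list only where their counts allow a call, so the last shares depend on depth. The 100 most counted genes of seed coat and the 100 of embryonic axis shared 32 genes. Of the 100 in seed coat 43 were coat-high and 0 axis-high, and of the 100 in axis 4 were coat-high and 48 axis-high.

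The gene that took most seed coat counts was Sc18g0006960. It stood at 88235, 96925, 89924, 95334 and 89340 CPM in seed coat libraries 1 to 5, against 177, 1697, 3497, 776 and 1308 CPM in axis libraries 1 to 5. The seed coat libraries lay within a narrow range, whereas the axis libraries had an SD of 1259 CPM around a mean of 1491 CPM. It took 9.59% ± 0.44 of seed coat counts and 0.160% ± 0.142 of axis counts (SD, n = 5). The log2 difference was 5.95 ± 0.65 (SE), with an adjusted p of 8.75e-08 by edgeR's quasi-likelihood test. In cotyledon the gene averaged 4471 ± 2961 CPM, and in whole seed 47314 ± 10225 CPM (SD, n = 5).

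Sc18g0003160 had the largest fitted rise in seed coat among genes with at least 10 CPM there and no overlap between tissues. Its counts were 3584, 3153, 1910, 3343 and 1733 in seed coat libraries 1 to 5, against 0, 2, 4, 0 and 5 in axis libraries 1 to 5. It was thus steady in seed coat at 137 ± 17 CPM (SD, n = 5) and almost without counts in axis, where 11 reads were counted in all libraries together. The pooled ratio was 1531, with a 95% counting interval of 855 to 3068, and the fitted log2 difference was 10.50 ± 0.33 (SE, edgeR adjusted p = 5.34e-15). Cotyledon libraries held 0.557 ± 0.240 CPM and whole seed 73.7 ± 17.9 CPM (SD, n = 5), so in this gene the axis and the cotyledon both lay far below the coat.

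The gene that took most embryonic axis counts was Sc03g0002590. Its levels were 58.0, 207.3, 26.1, 28.8 and 115.7 CPM in seed coat libraries 1 to 5, against 127095, 141122, 90995, 136907 and 142420 CPM in axis libraries 1 to 5. The groups lay far apart, with library 3 the lowest in both tissues. It took 0.00922% ± 0.00806 of seed coat counts and 13.5% ± 1.9 of axis counts (SD, n = 5). The log2 difference was -10.52 ± 0.69 (SE, edgeR adjusted p = 4.50e-11). Cotyledon held 81126 ± 18697 CPM and whole seed 22298 ± 8841 CPM (SD, n = 5).

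Sc02g0008030 had the largest fitted fall in seed coat by the same rule. It had 0 counts in all 5 seed coat libraries, against 1112, 1166, 1212, 868 and 2001 counts in axis libraries 1 to 5. At 51.7 ± 7.7 CPM in axis (SD, n = 5) it was at least 320-fold lower in seed coat, taken against a floor of 3 counts per library, which covers counting error only. The edgeR adjusted p was 3.09e-12. Cotyledon held 21.7 ± 6.4 CPM and whole seed 4.93 ± 2.26 CPM (SD, n = 5), so the gene had counts in every axis, cotyledon and whole-seed library.

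**Figure D2:**
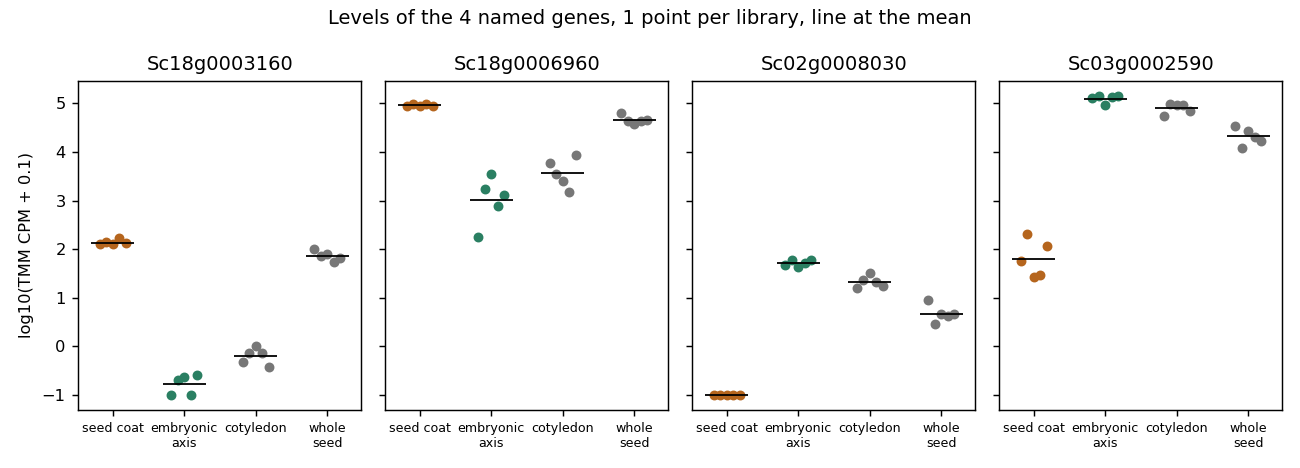
Levels of the 4 named genes as log10(TMM CPM + 0.1), 1 point per library and a line at the mean, for seed coat, embryonic axis, cotyledon and whole seed with 5 libraries each. For Sc18g0006960 the axis libraries spread from 177 to 3497 CPM while the seed coat libraries lie between 88235 and 96925 CPM, and Sc02g0008030 has 0 counts in every seed coat library.

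Fewer genes were detected in seed coat than in axis. At 1 CPM or more, without TMM scaling, 16126, 16169, 15435, 16190 and 16410 genes were detected in seed coat libraries 1 to 5, against 16661, 16840, 17102, 16769 and 16891 in axis libraries 1 to 5. Every axis library was above every seed coat library. The means were 16066 ± 369 and 16853 ± 164 (SD, n = 5), a difference of -787 genes. A two-sided exact permutation test gave p = 0.00794, which 5 libraries against 5 cannot go below, and an adjusted p of 0.0159 over 2 measures. With every library thinned to 9882334 counts the difference was -785 genes at 10 counts or more, and without seed coat library 3, the lowest, it was -629.

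The 100 most counted genes held on average a smaller share of counts in seed coat than in axis. In each library the 100 genes with most counts held 29.3%, 29.6%, 29.1%, 31.1% and 27.8% of counts in seed coat libraries 1 to 5, against 31.3%, 34.2%, 29.1%, 33.5% and 35.5% in axis libraries 1 to 5. Axis library 3 lay among the seed coat libraries and the other axis libraries lay above them. The means were 29.4% ± 1.2 and 32.7% ± 2.5 (SD, n = 5), with p = 0.0397 by the same exact permutation test and an adjusted p of 0.0397. This call was lost without seed coat library 1, 3 or 5 or without axis library 1, 2, 4 or 5, at adjusted p of 0.0635 to 0.0794 by exact permutation. Over the 1000 most counted genes the difference was -0.65 percentage points, with an adjusted p of 0.540 by exact permutation. The single most counted gene held 9.59% ± 0.44 of counts in seed coat and 13.5% ± 1.9 in axis (SD, n = 5). That gap is wider than the gap of all 100 genes together, so the values do not show a more even spread over the other genes.

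Genes that were on in one tissue and almost silent in the other were found mainly in the axis. At most 3 counts in every library of one tissue and at least 1 CPM in every library of the other was met by 9 genes on in seed coat and 177 genes on in axis. The 9 had a median of 4.81 CPM in seed coat, and 0 of them were at 0 counts in all axis libraries. The 177 had a median of 5.03 CPM in axis, and 59 of them were at 0 counts in all seed coat libraries. Of the 177, 54 were at 1 CPM or more in every cotyledon library and 26 had at most 3 counts in every cotyledon library, and of the 9 these were 0 and 5. Single libraries moved the smaller count, to 16 without seed coat library 3 and to 19 without axis library 3, and thinning to equal depth gave 34 and 298.

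The most abundant axis-high genes were mostly at very low levels in the coat, while few of the most abundant coat-high genes were as low in the axis. This was measured on the 100 coat-high and the 100 axis-high genes with the highest level in their own tissue, as the percent of that tissue's mean. Since the lists were made from these libraries, the values are a description. The median axis-high gene stood at 0.369%, 0.677%, 0.450%, 0.554% and 0.985% of its axis level in seed coat libraries 1 to 5. The median coat-high gene stood at 3.42%, 8.49%, 14.3%, 5.99% and 8.67% of its coat level in axis libraries 1 to 5. The library medians of the 2 sets did not overlap. With the 500 most abundant genes of each list the means of the library medians were nearer to each other, 5.40% for axis-high genes in seed coat and 12.7% for coat-high genes in axis. Averaged over libraries, 58 of the 100 axis-high genes were under 1% in seed coat and 19 were at 10% or more, whereas 11 of the 100 coat-high genes were under 1% in axis and 44 were at 10% or more.

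The axis libraries differed among themselves in this respect, and many coat-high genes moved together. Axis library 3 was the highest of the 5 for 71 of the 100 genes, and library 1 was the lowest for 76. Sc18g0006960 stood at 0.192%, 1.85%, 3.80%, 0.844% and 1.42% of its coat level in axis libraries 1 to 5. Sc18g0003160, a coat-high gene that was not among the 100, stood at 0%, 0.0729%, 0.101%, 0% and 0.110%. The lowest value among the 100 genes, which was not of the same gene in every library, was 0.0396%, 0.0398%, 0.0889%, 0.205% and 0.0502% in axis libraries 1 to 5. The part of seed coat tissue left on the dissected axis in the remaining level was not tested. Without axis library 3 the mean of the library medians was 6.75%, against 8.17% with it.

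**Figure D3:**
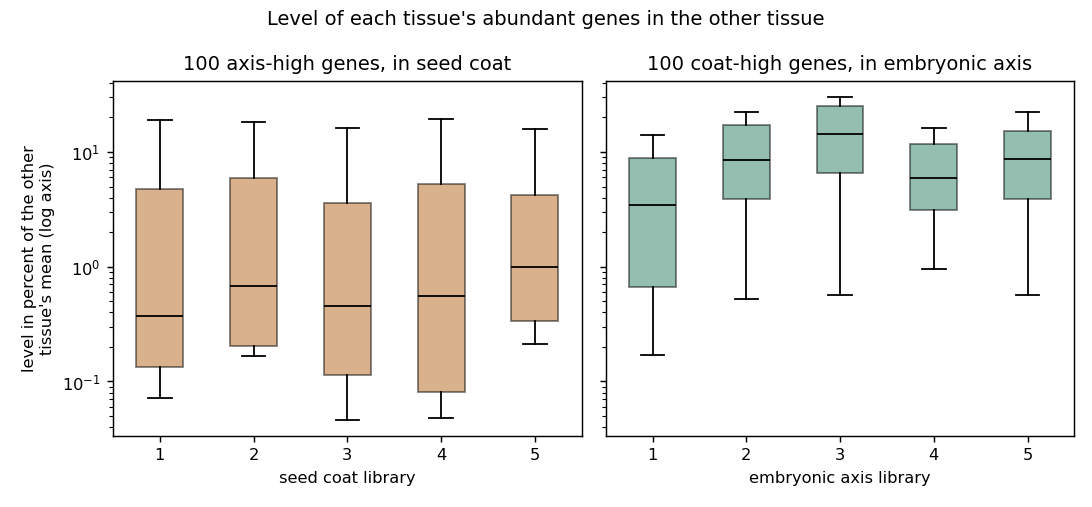
Level of the 100 most abundant axis-high genes in each seed coat library (left panel) and of the 100 most abundant coat-high genes in each embryonic axis library (right panel), in percent of the mean of the tissue where they are high (vertical log axis). Boxes span the quartiles with a line at the median, and whiskers run to the 10th and 90th percentiles over genes. Medians are under 1% in all seed coat libraries and between 3.42% and 14.3% in the axis libraries.

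Cotyledon and whole seed, whose libraries were in the fit behind the lists but not in the contrast, held the 2 sets of genes in different proportions. Coat-high genes took 29.3% ± 0.8 of counts in seed coat, 2.02% ± 1.01 in axis, 3.95% ± 2.13 in cotyledon and 16.9% ± 2.3 in whole seed (SD, n = 5). Axis-high genes took 0.839% ± 0.056 in seed coat, 35.1% ± 3.0 in axis, 33.0% ± 5.1 in cotyledon and 13.2% ± 3.1 in whole seed. The shares depend on the leading gene of each list. Without Sc18g0006960 the coat-high share was 19.7% ± 0.8 in seed coat and 1.86% ± 0.87 in axis, and without Sc03g0002590 the axis-high share was 0.830% ± 0.052 in seed coat and 21.6% ± 1.5 in axis. These are bulk samples, in which fewer cells of a type and less RNA per cell cannot be told apart.

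Many axis-high genes also had high levels in cotyledon, and others were low there. Of 1961 axis-high genes, 1003 had a cotyledon mean of at least 50% of the axis mean and 478 were above it, while 546 had at most 25%. Of 1381 coat-high genes, 241 had a cotyledon mean of at least 50% of the coat mean, 631 had at most 25% and 189 were below the axis as well. Median levels of the coat-high genes were 4.20 ± 0.07 in seed coat, 1.18 ± 0.46 in axis, 2.20 ± 0.49 in cotyledon and 3.62 ± 0.11 in whole seed on the log2(CPM + 0.5) scale (SD, n = 5). Those of the axis-high genes were -0.05 ± 0.35, 3.24 ± 0.08, 2.09 ± 0.32 and 1.39 ± 0.21 in the same tissues. In cotyledon the coat-high share was 5.53% and 6.83% in libraries 1 and 5 and between 1.87% and 3.05% in the others. Whole seed lay nearer to seed coat than to axis for 96.2% of coat-high genes and 63.2% of axis-high genes, a measure in which the axis and coat libraries that made the lists are used again.

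The time course, whose libraries did not enter the lists, followed the 2 sets through seed filling and drying. Its table was normalized separately, so tests were made within it and its levels are not set against those of the dissected tissues. Of the 1381 coat-high genes 1295 passed the filter on low counts there, and of the 1961 axis-high genes 1690 did. The 271 axis-high genes that did not pass had a median of 1.96 CPM in axis, and those that passed had 12.3 CPM. The 86 coat-high genes that did not pass had a median of 1.18 CPM in seed coat. The libraries of mid seed enter both the step from early to mid and the step from mid to late seed, and those of late seed both later steps. Time-course libraries are bulk samples too, so changed tissue proportions and a changed level within a tissue cannot be told apart.

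Coat-high genes were more often lower than higher at each step. From early to mid seed 160 rose and 598 fell out of 1295, or 12.4% and 46.2%, where 26.0% of all 18440 genes tested were higher and 23.6% lower by edgeR. From mid to late seed 225 rose and 574 fell, or 17.4% and 44.3%, against 27.3% and 29.8% of all genes. From late to dry seed 99 rose and 1042 fell, or 7.64% and 80.5%, against 36.8% and 43.3% of all genes. The median log2 change of these genes was -0.57, -0.52 and -4.20 over the 3 steps, against 0.02, -0.02 and -0.13 for all genes. Their share of counts was 15.4% ± 1.7 in early seed, 9.48% ± 1.37 in mid seed, 4.36% ± 0.21 in late seed and 1.06% ± 0.08 in dry seed (SD, n = 6).

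Axis-high genes rose most often between early and mid seed. From early to mid seed 877 rose and 207 fell out of 1690, or 51.9% and 12.2%, against 26.0% and 23.6% of all genes. From mid to late seed 572 rose and 467 fell, or 33.8% and 27.6%, against 27.3% and 29.8% of all genes. From late to dry seed 508 rose and 788 fell, or 30.1% and 46.6%, against 36.8% and 43.3% of all genes. Their share of counts was 2.48% ± 0.12 in early seed, 10.05% ± 0.89 in mid seed, 26.4% ± 0.9 in late seed and 24.3% ± 4.7 in dry seed (SD, n = 6). The median log2 change of these genes was 0.96, 0.14 and -0.59 over the 3 steps. Without Sc03g0002590 their share of counts was 9.43% ± 0.74 in mid seed and 22.4% ± 2.2 in late seed.

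The named genes moved in different ways over the stages. Sc18g0006960 averaged 39766 ± 8302, 21147 ± 3205 and 5656 ± 873 CPM in early, mid and late seed (SD, n = 6). It fell at both steps, with log2 changes of -0.91 ± 0.25 and -1.90 ± 0.26 (SE, edgeR adjusted p = 0.00534 and 3.68e-06). In dry seed it had 0 counts in all 6 libraries, at least 30918-fold lower than in late seed against a floor of 3 counts per library. Sc18g0003160 averaged 32.20 ± 11.03, 19.57 ± 4.34, 15.95 ± 4.16 and 0.248 ± 0.189 CPM in early, mid, late and dry seed. It fell into mid seed and into dry seed (edgeR adjusted p = 0.0215 and 1.94e-13), and the step to late seed did not pass (log2 change -0.29 ± 0.25, adjusted p = 0.336).

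Both named axis-high genes were highest in late seed. Sc03g0002590 averaged 55.1 ± 34.8, 5733 ± 1558, 43589 ± 21095 and 192 ± 101 CPM in early, mid, late and dry seed (SD, n = 6). The late-seed libraries ranged from 15126 to 65076 CPM, so that stage was uneven. Sc02g0008030 averaged 0.244 ± 0.134, 1.23 ± 0.58, 63.1 ± 18.1 and 0.663 ± 0.774 CPM in the same stages. Each rose into mid and late seed and fell into dry seed, with a highest edgeR adjusted p of 0.00497 over the 6 tests.

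**Figure D4:**
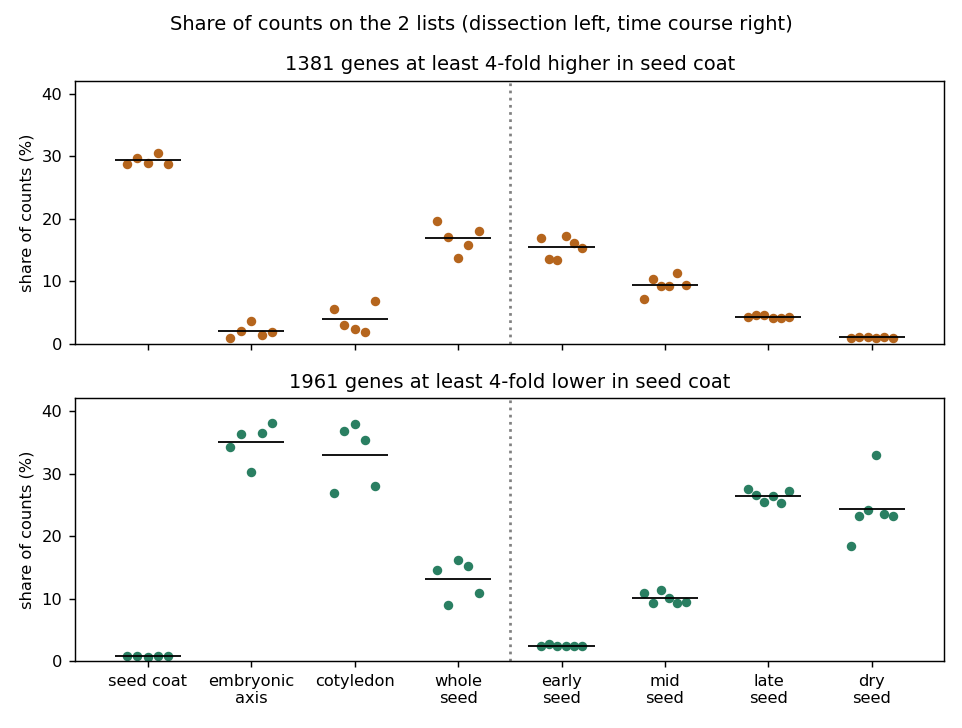
Share of counts (vertical axis, percent) on the 1381 coat-high genes (upper panel) and the 1961 axis-high genes (lower panel), 1 point per library and a line at the mean, for the dissected tissues and whole seed on the left and the time course on the right. The coat-high share goes down from 15.4% in early seed to 1.06% in dry seed, and the axis-high share is 26.4% in late seed and 24.3% in dry seed. The 2 series are not to be read against each other. Whole seed of the dissection series held 16.9% coat-high and 13.2% axis-high, and mid seed of the time course 9.48% and 10.05%. The cause of that difference was not tested.

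**Figure D5:**
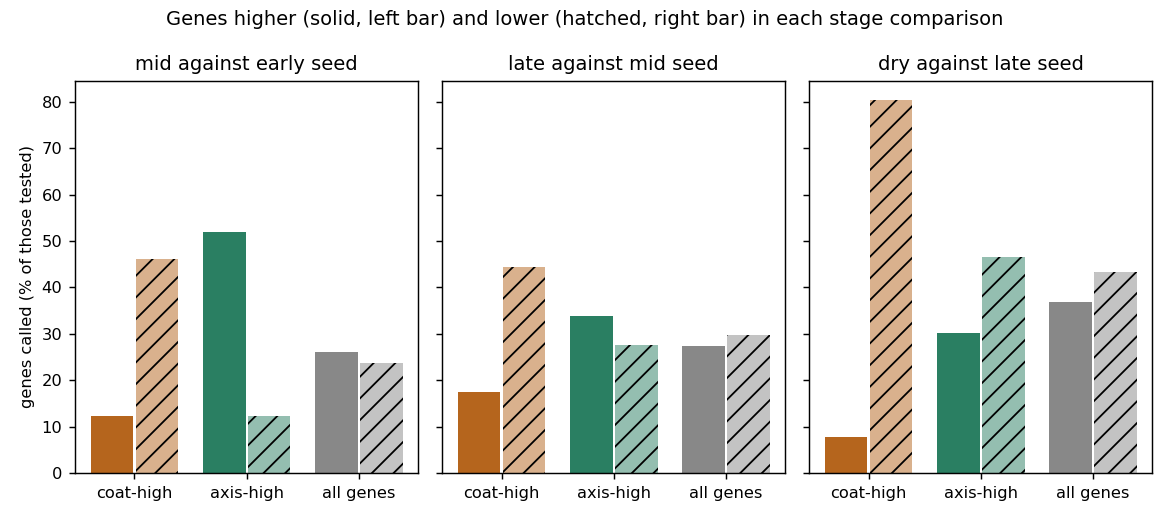
Percent of genes tested that were higher (solid bars) and lower (hatched bars) in the later stage by edgeR at an adjusted p under 0.05, for coat-high genes (1295), axis-high genes (1690) and all 18440 genes. Coat-high genes exceed all genes in the lower direction at each step, most in dry seed at 80.5% against 43.3%, and axis-high genes exceed them in the higher direction from early to mid seed at 51.9% against 26.0%.

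Coat-high and axis-high genes occurred under all 26 numbered identifier prefixes. The share of tested genes that were coat-high ranged from 4.95% under Sc21 to 9.38% under Sc26, and the axis-high share from 7.82% under Sc09 to 14.2% under Sc11. Genes of one list often followed each other in identifier order. The next tested gene was also coat-high for 217 of 1381 coat-high genes, or 15.7%, where 7.47% of all genes were coat-high, and it was axis-high for 9.78%, where 10.6% of all genes were. After an axis-high gene the next was axis-high in 392 of 1956 cases, or 20.04%. Whether identifier order follows the chromosomes is not stated in the labels or files. Near-identical neighbouring copies can share reads, and their part in these pairs was not tested.

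The longest series of such genes were 13 coat-high genes in succession under Sc14 and 7 axis-high genes in succession under Sc20, both singled out after their values were seen. The 13 ranged from 0.919 to 903 CPM in seed coat, with a median of 79.4, and had a median of 8.93 CPM in axis and 22.6 CPM in cotyledon. Their log2 differences ranged from 2.24 to 4.91. The 7 had a median of 0.00702 CPM in seed coat and of 3.74 CPM in axis, and 1.15 CPM in cotyledon, with fitted log2 differences from -8.91 to -4.50. Their seed coat means ran from 0 to 0.795 CPM, where a floor of 3 counts per seed coat library averages 0.162 CPM. Most of these fitted differences therefore rest on almost no seed coat counts, and their size is uncertain. In all, 134 coat-high genes stood in 39 such series of at least 3 genes, and 221 axis-high genes in 64.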

How the data were processed

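The submitters' processing notes name Trimmomatic, STAR and DESeq2 without versions, and per the labels' protocols RNA was extracted with hot borate and sequenced from a stranded mRNA kit. Which program counted reads, on which genome build and annotation, and whether strand was used is not given in the sources used here. As deposited by the authors, the tables hold raw read counts per gene, in 1 table for the dissection series and 1 for the time course. The deposited normalized versions were not used. Genes were tested with edgeR 4.0.16 (R 4.3.3): TMM, filterByExpr, estimateDisp, glmQLFit and glmQLFTest, with all 4 groups of a table in 1 fit and Benjamini-Hochberg adjustment over all genes tested. The filter left 18499 genes in the dissection series and 18440 in the time course. The same test, fitted to the 2 tissues alone, was run on simulated counts of 17822 genes, with 100 genes changed 2-fold and 100 changed 4-fold. The changed genes were drawn only from genes with a mean of at least 1 CPM. The test called 63 and 95 of the changed genes in the right direction, with 4 false calls. Recovery of changed genes under 1 CPM was not simulated. In the real data 64.5% of genes were called, so the simulation does not check the fit at that scale. All pairs of libraries within a tissue differed by more than sampling noise, with a chi-square per degree of freedom of 10.6 or more.

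Named genes are, in each direction, the one with the largest fitted log2 fold change and the one with the largest difference of mean CPM, among genes with an adjusted p under 0.05, at least 10 CPM in the higher tissue and no overlap between tissues. The comparison and its members, lists and tests were chosen with earlier results of these data known, and libraries were assigned to tissues by label. Marker lists were left out because they need gene names. Python 3.11.15, numpy 2.4.6, pandas 2.3.3, scipy 1.17.1 and matplotlib 3.10.9 were used for tables, exact permutation tests and plots. Intervals are exact 95% intervals from pooled counts and, like floors, cover counting error only. Near-identical copies, and antisense genes if strand was not used, may share reads, which makes single-gene values uncertain. Alternatives were the Wald test of DESeq2 1.42.0, the size factors of DESeq2, upper-quartile scaling, no filter, only the 2 tissues, the replicate block and each library left out, with other thresholds, list sizes and pseudocounts for the descriptive measures.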

Additional observations from a re-analysis of the deposited data

Results flagged for a closer look

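Of 68 groups of libraries checked with Dixon's criterion, in which chance flags about 5% of groups, 3 held a library far from the others. In seed coat, the median level of axis-high genes was -0.66 in library 3 on the log2(CPM + 0.5) scale, against 0.04 to 0.15 in the other libraries. This is the library that also had the fewest detected genes. Sc02g0008030 stood at 8.79 CPM in whole-seed library 1, above the other whole-seed libraries. In early seed, library 2 had the highest share of counts on axis-high genes, 2.71%.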

How the results depend on the processing

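Counts of genes higher and lower in seed coat, in all and at 4-fold, stayed within 1.5 times of the reported counts under every alternative. Leaving out 1 library gave 5320 to 5662 higher and 5826 to 6539 lower genes, and 1297 to 1495 and 1964 to 2145 at 4-fold. DESeq2's Wald test called 5862 and 6887. Higher calls were 44.97% to 49.98% of all calls under the 6 other settings, each of which also scales libraries on the bulk of genes. The median log2 difference of all genes tested was -0.05. Under the 6 other settings it ran from -0.15 (no filter) to -0.03 (only the 2 tissues), with -0.11 under upper-quartile scaling. Same-numbered libraries of the tissues did not deviate together (correlations of -0.06 to 0.03, 1 of 5 seed coat libraries closest to its own number), and the labels do not say whether they came from the same seeds; with the replicate block the counts were 5576 higher and 5665 lower, and 1341 and 1922 at 4-fold. The named genes kept direction and call in all 16 alternatives each. The difference in the share of the 100 most counted genes, -3.34 percentage points, was -0.65 with 1000 genes (exact permutation test, adjusted p = 0.540) and -4.23 to -2.65 with 1 library left out; the difference in detected genes was -873 to -629 with 1 left out. Near-silent genes numbered 2 (on in seed coat) and 65 (on in axis) at 5 CPM, 34 and 298 after thinning, and 9 to 19 and 180 to 221 with 1 library left out. The residual medians were 0.174% (axis-high genes in seed coat, 20 genes), 5.40% (500 genes), 4.59% (coat-high genes in axis, 20 genes) and 12.7% (500 genes); with 1 library left out they were 0.474% to 0.646% and 6.75% to 8.90%. With a pseudocount of 2 CPM the median log2 level of coat-high genes in whole seed was 3.78, and that of axis-high genes 2.53 in cotyledon and 2.05 in whole seed. With lists at 16-fold, coat-high genes higher were 19.6% in mid, 10.6% in late and 2.86% in dry seed, and with lists at 2-fold 17.3% in dry seed. The next gene was on the same list for 23.8% (coat-high) and 25.8% (axis-high) with 2-fold lists, which held 16.9% and 19.6% of all genes, 9.96% and 14.2% with 16-fold lists, which held 1.46% and 4.65%, and 13.3% and 15.7% when untested genes counted as neighbours, an alternative added after seeing the data; longer lists meet more neighbours by construction. The causes of the other moves were not tested.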
